A study of Mus musculus with 2 samples.

Results

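Salivary secretion is driven by transmitters released from parasympathetic and sympathetic nerves, and 9 genes for receptors of these transmitters and of extracellular ATP were examined in salivary gland epithelial cells of young and aged mice. They were taken by gene name, with every non-control probe of each gene, and make up 9 of the 36870 gene names and 18 of the 56605 probes on the array. Chrm1 and Chrm3 encode muscarinic acetylcholine receptors, Adra1a, Adra1b and Adrb1 encode adrenergic receptors, Vipr1 and Tacr1 encode receptors for vasoactive intestinal peptide (VIP) and substance P, and P2rx4 and P2rx7 encode ATP-gated ion channels.

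Cells carrying EpCAM, an epithelial surface protein, were collected on magnetic beads from digested submandibular glands of female C57BL/6 mice at 9 weeks (young) or 24 months (aged) of age, and RNA of each age was hybridized to 1 Agilent array with probes of 60 bases. No treatment or altered allele was named for either group, and the arrays shared 1 slide. The study's methods name the substrain C57BL/6N and give a commercial breeder for the young mice and the institute's own facility for the aged mice, so that age and source cannot be told apart. A single array per age leaves every difference without replicates, so that none was tested and no p-value is given.

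Acetylcholine acting on the M3 receptor, with a part played by M1, is the main drive for fluid secretion by acinar cells, through Gq and release of stored calcium. Noradrenaline acts on alpha1 receptors through the same calcium route, and on the beta1 receptor through Gs and cyclic AMP, which drives release of stored protein. VIP receptors also raise cyclic AMP, the substance P receptor couples to Gq, and P2X channels open to let calcium and sodium in when ATP is released near the cell.

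The parts of the probes on which the differences turn are given as the last 30 bases of each probe, read 5′ to 3′ from the scanner files, because several probes of 1 receptor gene did not move alike. Capitals mark the hexamer ATTAAA, a variant of the polyadenylation signal. The hexamers AATAAA and ATTAAA were searched on the probe strand alone, and 1 or the other was present in 3 of the 18 receptor probes and in 13.4% of all 56605 probes. Coordinates are those of the files (mm9), and the place of the probes within exons or untranslated regions was not analysed here.
Chrm3, upstream probe A_51_P247853: atgccagtgtgacaagaggaagcggcgcaa
Chrm3, downstream probe A_55_P1955681: gttttgtgcagttcaagtttcatacaaata
Adra1a, probe A_51_P447229: gatccacaccatctccctcggtgaaaacgg
Adrb1, probe A_52_P322181: attgtaaaattcatagaagttgttaacttg
P2rx7, variant 1 probe A_52_P393314: ctaaactcttcctaatttcgtgtaagggtt
P2rx7, variant 2 probe A_51_P506733: ccagctggttgtatacattggatccaccct
P2rx7, variant 4 probe A_55_P2183010: tcacaaaattaatgttagagtttcttttag
P2rx4, probe A_55_P2183015: tgacctaggaccaaacATTAAAgaaaataa

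Of the 9 receptors, 7 could be measured at both ages, and none of these differed by 2-fold. Here and below, a level is the log2 of the processed signal over the 75th percentile of the array, and a difference is the aged level minus the young level with the error that the scanning software gives for the spots. Of the 18 probes, 13 probes of 7 genes were marked well above background by the software at both ages and 5 probes at neither. The 13 differences ran from -0.85 to 0.77 with a median of -0.08, and 8 were below 0. Of all genes measured at both ages, each by its brightest kept probe, 40.1% were below 0, a share that ran from 24.5% to 67.1% over the scalings. The 13 are probes, several of them from 1 gene, and by the brightest kept probe the 7 receptors had a median of -0.13. Among all 18694 genes measured on both arrays the median was 0.09, the 10th percentile -0.48 and the 90th percentile 0.58, and 4.56% were at least 2-fold apart (1.51% higher and 3.04% lower in aged cells). Of the 13 differences, 3 were larger than 2 errors, namely those of Chrm3, Adra1a and P2rx7, each at 1 of its probes. The share of all probes past 2 errors was not computed, so this count does not set the receptors apart. The median error of the 26746 probes measured on both arrays was 0.21. Under all 7 scalings examined, 5 of the 13 kept their sign and 8 did not, and the share of all genes that did so was not computed.

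**Figure D1:**
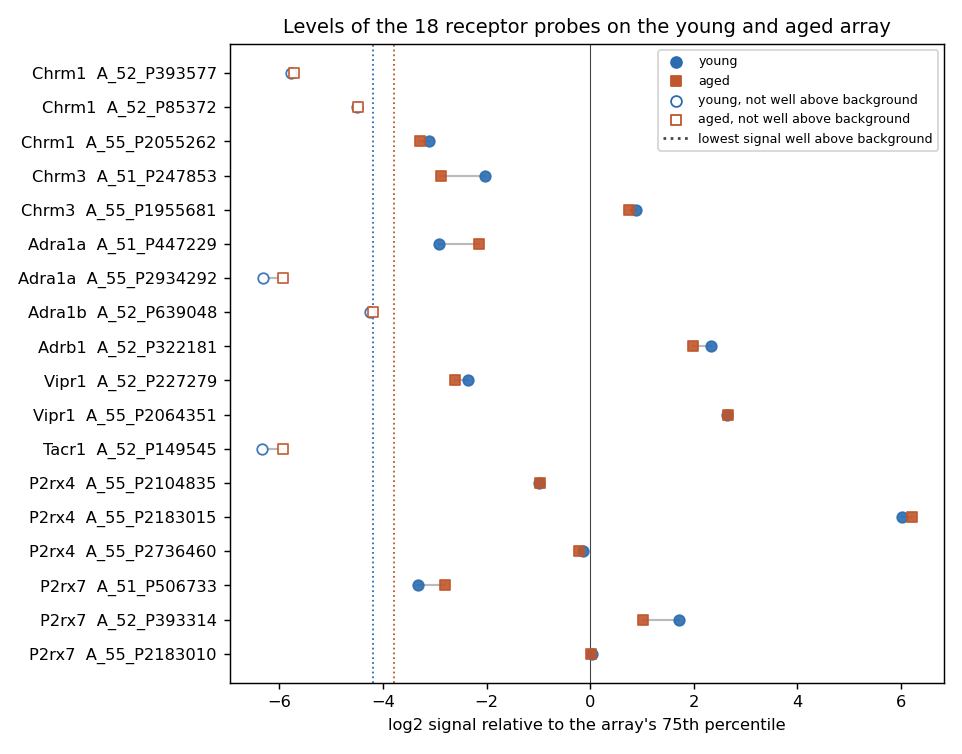
Levels of the 18 receptor probes on the young (circles) and aged (squares) array, as log2 of the signal over the array's 75th percentile; open symbols had no mark for a signal well above background, and dotted lines give the lowest signal well above background on each array. Levels can be compared between the ages for 1 probe but not between probes.

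The scalings also move all genes together. The median difference of all genes was shifted by 0.17 with centring on the median, by -0.25 with spike-in controls, by -0.11 with the 75th percentile taken over the probes measured at both ages and by -0.12 with loess. Differences relative to the median of all genes under the same scaling are therefore given for the receptors on which the results turn.

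**Figure D2:**
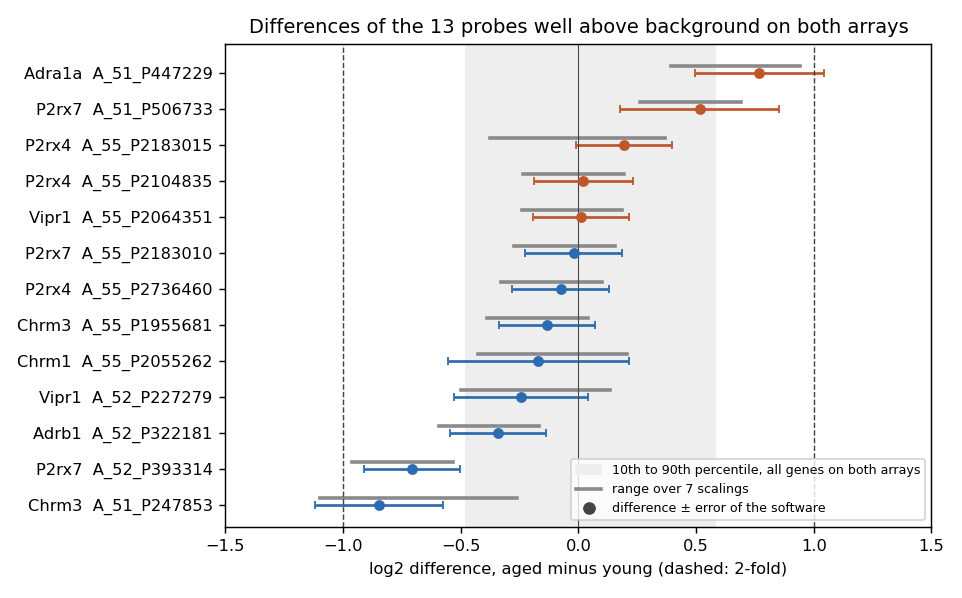
Difference of each receptor probe measured at both ages (log2, aged minus young), with the error of the software and the range over 7 scalings. The Chrm3 upstream probe, the P2rx7 variant 1 probe and the Adra1a probe lie farthest from 0.

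Of the muscarinic receptors, Chrm3 (M3) was measured by a pair of probes on the same transcript, NM_033269, that lay 659 bases apart. The downstream probe (mm9, chr13:9875880-9875939, minus strand) gave a signal of 474 ± 47.5 in young and 334 ± 33.6 in aged cells, a difference of -0.13 ± 0.20 that changed sign between scalings (-0.39 to 0.04). The upstream probe (chr13:9876539-9876598) gave 62.4 ± 6.94 and 26.8 ± 4.08, so that its level was lower in aged cells by 1.80-fold, a difference of -0.85 ± 0.27. Of all genes measured on both arrays, each by its brightest kept probe, 4.01% had a lower difference. The upstream probe is the dimmer of the Chrm3 pair, and its rank among probes of like signal was not computed.

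The upstream probe stayed below 0 under all 7 scalings, from -1.10 with spike-in controls to -0.26 with normexp, a correction of the raw intensities. Relative to the median of all genes it ranged from -0.94 to -0.37. The gap between the Chrm3 probes was 0.71 ± 0.34. Of the 5567 genes with several probes on both arrays, 13.5% had a larger gap between their lowest and highest probe, with no matching for number of probes or signal. Over 1624 transcripts with a pair of probes from 300 to under 1300 bases apart, the upstream probe was lower in 50.1%, and the median of upstream minus downstream differences was 0.00 (-0.0005). Over all 3538 transcripts with several probes on both arrays, at any distance, the upstream probe was lower in 43.8%, with a median of 0.03. The part of probe position in the Chrm3 gap was not tested.

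Chrm1 (M1) was measured by 1 of its 3 probes. Its signal was 29.4 ± 4.79 in young and 20.2 ± 4.25 in aged cells, a difference of -0.17 ± 0.38, and the sign changed between scalings (-0.42 to 0.21). The other probes were not well above background at either age, and the lowest signal with that mark was 14.1 in young and 14.3 in aged cells. One of them, A_52_P85372, lay across an intron in the files' coordinates (chr19:8739471-8752391). The difference of Chrm1 was thus smaller than its own error.

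Of the adrenergic receptors, Adra1a (alpha1A) had the largest positive difference of the 13 probes. The signal of its measured probe (chr14:67346728-67346787) was 33.9 ± 4.80 in young and 44.6 ± 5.63 in aged cells. The level was 1.70-fold higher in aged cells, a difference of 0.77 ± 0.27, and 96.7% of all genes had a lower difference. The sign was kept under all 7 scalings, with values of 0.40 to 0.94, or of 0.29 to 0.87 relative to the median of all genes. The probe for transcript variant 4 was not well above background at either age, so that the value rests on 1 probe.

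Adrb1 (beta1), the adrenergic receptor that drives protein secretion, showed a smaller difference in the other direction. Its signal (chr19:56799215-56799274) was 1282 ± 128 in young and 782 ± 78.3 in aged cells. The level was 1.27-fold lower in aged cells, at -0.34 ± 0.20, which was 1.67 times its error, and 14.8% of genes had a lower difference. It was below 0 under all 7 scalings (-0.59 to -0.17) and lay between -0.49 and -0.43 relative to the median of all genes. Adra1b (alpha1B) was not well above background at either age, with signals of 13.5 ± 3.17 and 10.8 ± 3.08, and no difference can be given.

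Of the peptide receptors, Vipr1 (VPAC1) was measured by a pair of probes and Tacr1 (NK1) by none. The first Vipr1 probe, A_55_P2064351, gave 1595 ± 160 in young and 1243 ± 124 in aged cells, so that its level differed by 0.01 ± 0.20. The second, A_52_P227279, at 2334 bases from the first, gave 50.0 ± 6.26 and 32.6 ± 4.97, a difference of -0.24 ± 0.29. Neither was larger than its error, both changed sign between scalings, and the gap of 0.26 ± 0.35 between them was also within its error. The single Tacr1 probe gave signals of 3.18, a value the software substitutes for a signal below its error, and 3.26, and was not well above background at either age.

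Of the P2X channels, P2rx4 did not differ beyond its error at any of its 3 probes. Probe A_55_P2183015 gave 16608 ± 1661 in young and 14667 ± 1467 in aged cells, a difference of 0.19 ± 0.20 that ran from -0.38 with quantile normalization to 0.37. The remaining P2rx4 probes had differences of 0.02 ± 0.21 (A_55_P2104835, signals of 129 and 101) and -0.08 ± 0.21 (A_55_P2736460, an Ensembl transcript, signals of 231 and 170). The 3 probes thus lay within 0.27 of each other.

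P2rx7, a channel known for its response to high ATP, had 3 probes, each assigned by the files to a different transcript variant, and they did not move alike. The variant 1 probe (chr5:123134194-123134253) gave 844 ± 84.5 in young and 400 ± 40.1 in aged cells, a level 1.63-fold lower in aged cells and a difference of -0.71 ± 0.20. The variant 4 probe (chr5:123105174-123105233) gave 264 ± 26.6 and 201 ± 20.4, a difference of -0.02 ± 0.21. The variant 2 probe, which bridges an intron in the files' coordinates (chr5:123120528-123123413), gave 25.6 ± 4.34 and 28.3 ± 4.55, a difference of 0.51 ± 0.34. Only the variant 1 value was larger than 2 errors.

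The variant 1 difference was below 0 under all 7 scalings (-0.96 to -0.53), and relative to the median of all genes it lay between -0.81 and -0.79. In all, 5.47% of genes had a lower difference. The gap between the variant 1 and variant 2 probes, the lowest and highest of the 3, was 1.22 ± 0.39. A wider range from lowest to highest probe was found in 3.84% of genes with several probes. Those genes were not matched for number of probes or signal, and the variant 2 probe was dim. The gap between the variant 1 and variant 4 probes was 0.69 ± 0.29. The gap between the variant 4 and variant 2 probes was 0.54 ± 0.40. Whether a probe also matches other P2rx7 variants was not examined, and a change in the proportions of the variants was not tested. P2rx7 is also expressed by macrophages, whose 13 markers had a median difference of -1.23 on these arrays, and their part in its difference was not tested.

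**Figure D3:**
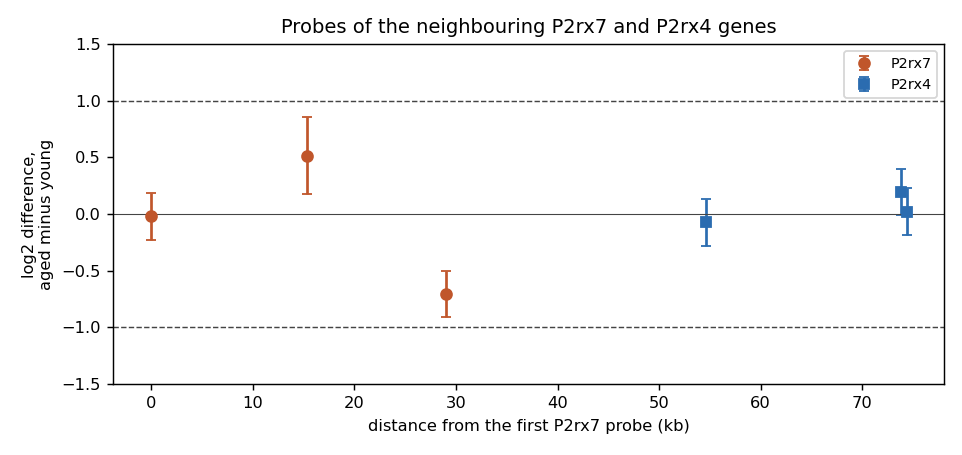
Differences (log2, aged minus young, with the error of the software) of the P2rx7 and P2rx4 probes against their distance in kb from the first P2rx7 probe. The genes are neighbours with 25.5 kb between their nearest probes, and the variant 1 probe of P2rx7 is the lowest of the 6.

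Other receptors of the same families held 4 genes past 2-fold, of which Adcyap1r1 was higher in aged cells and P2ry6, P2rx6 and Adra2a were lower. Of 37 such receptors on the array 26 were kept, meaning well above background at 1 age or both, so that 15.4% of those kept were past 2-fold as measured or by a limit. The share of all 21286 genes kept was 7.67%, with 2.53% higher and 5.14% lower. Where 1 array was not well above background, the fold is a lower limit, set against the higher of the probe's own signal there and the lowest signal with that mark. The median of the 17 measured on both arrays was -0.14.

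Adcyap1r1, the PACAP receptor, was higher in aged cells by 2.05-fold (signals of 158 and 250), at 1.04 and from 0.78 to 1.21 over the scalings, and so passed 2-fold in 3 of the other 6. The other Adcyap1r1 probe, on the same transcript, was not well above background at either age. P2ry6, a receptor for UDP, was lower by 2.82-fold, at -1.49 and from -1.75 to -1.02. P2rx6 was at least 12.5-fold lower in aged cells by a probe for an Ensembl transcript (signals of 230 and 3.40, the latter a substitute), a limit of -3.64 in log2 that ran from -3.90 to -1.72 over the scalings, while its RefSeq probe was not well above background at either age. Adra2a, an inhibitory adrenergic receptor, was at least 2.06-fold lower, although its limit stayed past 2-fold in only 3 of the other 6 scalings.

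Chrm4 (-0.07), Adra2b (-0.02), Vipr2 (-0.19), Tacr2 (-0.05), Ramp1 (-0.06), Ramp2 (-0.14), P2rx1 (-0.26), P2rx2 (0.23) and Adora1 (-0.19) were within 0.3 of 0, and Tacr3 (0.65), P2ry2 (0.48), Calcrl (-0.57), Ramp3 (-0.66), P2rx3 (-0.60) and Adora2a (-0.79) were farther from it. The muscarinic receptors Chrm2 and Chrm5, the adrenergic receptors Adra1d and Adra2c and the NPY receptors Npy1r, Npy2r and Npy5r were not well above background at either age.

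**Figure D4:**
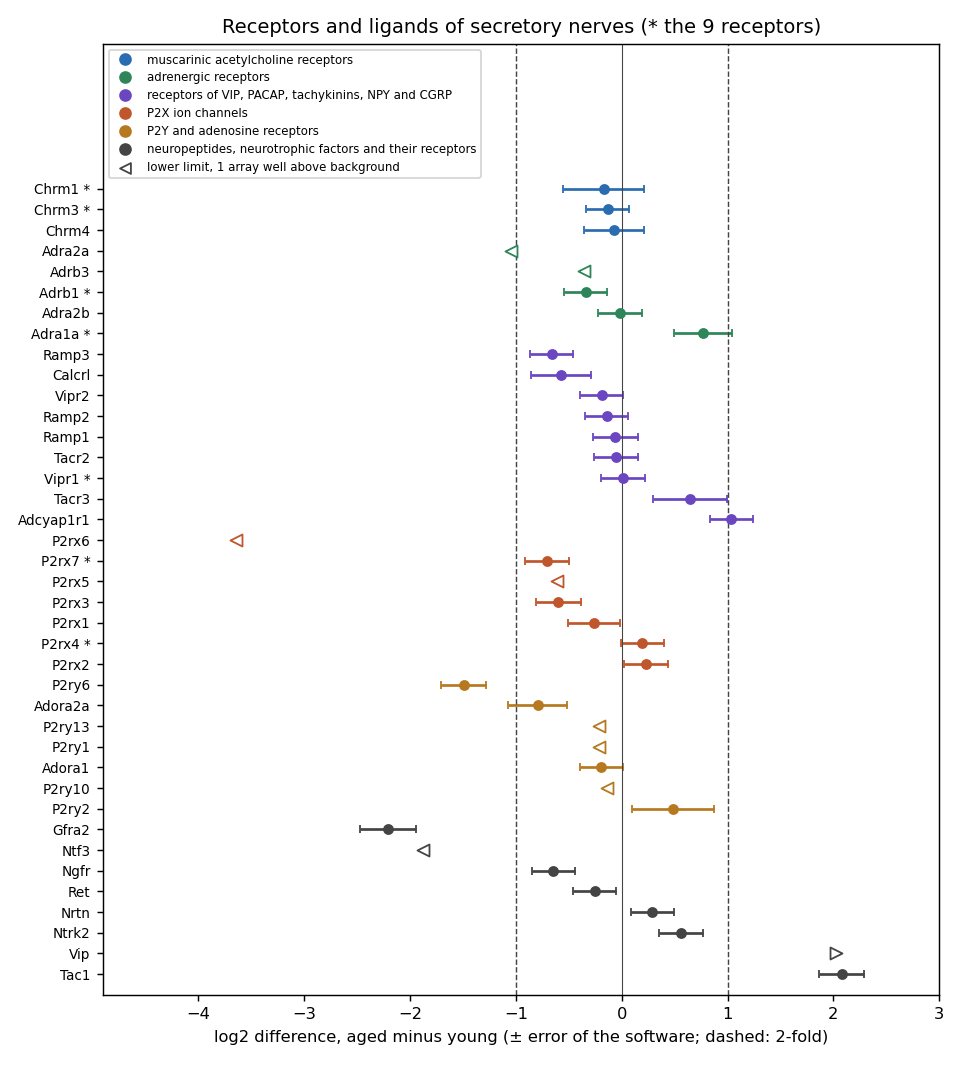
Differences (log2, aged minus young, with the error of the software) of receptors of secretory nerve transmitters and nucleotides and of their ligands and neurotrophic factors, by list; triangles are lower limits and asterisks mark the 9 receptors, of which 7 are plotted. The members measured lie within 1 log2 unit of 0, while P2ry6, P2rx6, Gfra2, Ntf3, Vip and Tac1 lie farther out.

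Among the genes for ligands of these receptors, Tac1 and Vip were past 2-fold. Tac1, the precursor of substance P, was higher in aged cells by 4.22-fold (signals of 100 and 326), at 2.08 and from 1.55 to 2.25 over the scalings, and 1 other probe gave 1.60, while its remaining 2 probes were not well above background at either age. Vip was well above background in aged cells alone (3.05, a substitute, and 44.1) and was at least 4.06-fold higher, or 0.86 to 2.20 in log2 over the scalings, past 2-fold in 5 of the other 6. Of the Tacr and Vipr receptors, Tacr1 was not measured and Vipr1 was without a difference beyond error. Tacr2 differed by -0.05 ± 0.20, Vipr2 by -0.19 ± 0.20 and Tacr3 by 0.65 ± 0.35. In the neurotrophic group, Gfra2, the receptor of neurturin, was lower by 4.62-fold (signals of 167 and 28.0), at -2.21 and from -2.46 to -1.07 over the scalings, and its other probe was not well above background at either age. Ntf3, a neurotrophin, was at least 3.67-fold lower, past 2-fold in 5 of the other 6 scalings. Ret (-0.26), Nrtn (0.29), Ngfr (-0.64) and Ntrk2 (0.56) were within 2-fold. Of this list of 17 genes on the array, 9 were kept. Past 2-fold were 4, 2 in each direction, against 7.67% of all genes kept. The median was -0.26 over the 7 measured on both arrays.

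The coupling genes downstream of the receptors were mostly near 0, and the medians of the Gq, Gs, desensitisation and nucleotide lists changed sign between scalings. Of 19 genes for Gq and calcium coupling 17 were measured on both arrays, none was past 2-fold and the median was 0.00, with Gnaq at -0.27, Gna11 at 0.48 and Itpr1 at -0.52. Of 24 genes for Gs and cyclic AMP coupling 21 were kept, the median of the 20 measured on both arrays was 0.04, and Adcy7, an adenylyl cyclase, was lower by 8.29-fold (227 and 21.2), at -3.05 and from -3.31 to -1.54. Of 13 genes for receptor desensitisation 12 were kept, the median was -0.14, and Rgs1 was lower by 2.45-fold (660 and 209). Of 14 genes for nucleotide release and breakdown 11 were kept and the median of the 10 measured on both arrays was 0.14. Nt5e, which makes adenosine from AMP, gave opposite limits at its probes, at least 13.4-fold lower by an Ensembl probe (248 and 3.47; -4.00 to -1.76 in log2 over the scalings) and at least 2.50-fold higher by a RefSeq probe (16.0 and 31.0).

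**Figure D5:**
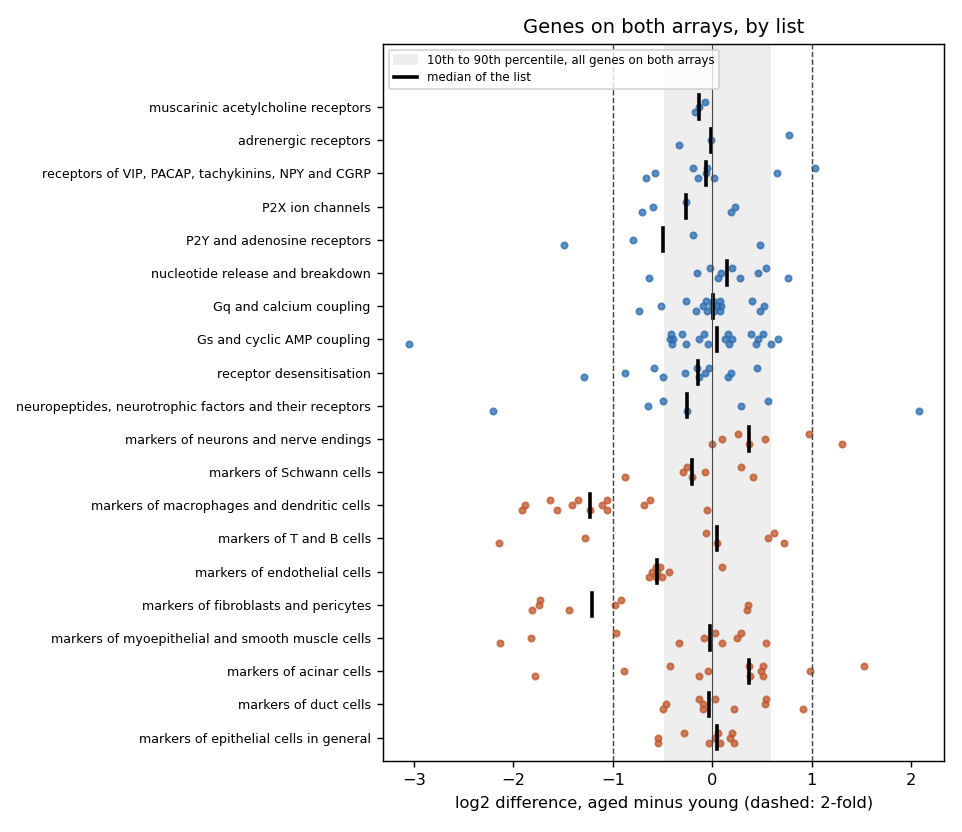
Differences (log2, aged minus young) of the genes measured on both arrays, for the pathway lists (blue) and the cell type marker lists (orange), with the median of each list. The shaded band holds the middle 80% of all genes, and markers of macrophages and dendritic cells and of fibroblasts and pericytes lie mostly below it.

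Markers of other cell types moved with the ages. All 13 markers of macrophages and dendritic cells were lower in aged cells by the probe that stands for the gene. At least 2-fold lower were 10 of them, against 3.04% of all genes measured on both arrays. Their median was -1.23, with a summed level of 209 times the 75th percentile in young and 109 in aged cells (116 and 84.4 without Lyz2, the brightest). Every one was well above background at both ages. Itgam, at -0.05 ± 0.20, changed sign between scalings (-0.61 to 0.12). Another Itgax probe gave 0.42 and another Csf1r probe -0.08, while further probes of Cd68, Lyz2, Cd14 and Cx3cr1 were also below 0. Of the 10 markers of fibroblasts and pericytes 5 were at least 2-fold lower (32.3 and 14.4), against 5.14% of all genes kept. Thy1 (0.34) and Cspg4 (0.36) were above 0. Of the 9 endothelial markers measured on both arrays 8 were below 0 (12.9 and 8.89), against 40.1% of all such genes. Of the markers of neurons and nerve endings 9 were kept, and 2 of them were at least 2-fold higher in aged cells, against 2.53% of all genes kept. Uchl1 differed by 1.30 at the probe that stands for it and by 0.0036 at its other probe, and Dbh, the noradrenaline-making enzyme, was well above background in aged cells alone and at least 3.74-fold higher (signals of 3.99 and 40.6). The 7 measured at both ages ran from 0.00 (Snap25) to 1.30, with Stmn2 at 0.97, and Snap25 and Elavl4 fell below 0 under some scalings, while Chat was well above background in young cells alone. The summed level was 39.0 in young and 40.3 in aged cells. Snap25 made up 92.2% and 89.1% of this signal, and without Snap25 the sum was 3.06 and 4.38. These sums add the signals of different probes, also of genes well above background at 1 age only, and their shares are not shares of transcripts. All 10 markers of epithelial cells in general were well above background at both ages and none was 2-fold apart (median 0.05, from -0.36 to 0.22 over the scalings), and Epcam gave 1778 and 1573, a difference of 0.20. The median was 0.37 for 12 acinar markers, among them Chrm3 (7653 and 10611, summed), and -0.38 with loess. It was -0.03 for duct markers, -0.02 for myoepithelial and smooth muscle markers and -0.21 for Schwann cell markers. These medians changed sign between scalings. Single genes lay far from them, with the acinar markers Smgc at -1.79 and Bpifa2 at 1.52. Of the myoepithelial and smooth muscle markers, Cnn1 was at -2.14 and Myh11 at -1.83, with 0.12 at another Myh11 probe. Bpifa2 and Myh11 were within 2-fold under some scalings. Of 10 T and B cell markers kept, 3 were at least 2-fold lower and 1 higher (12.1 and 13.7, summed), against 5.14% and 2.53% of all genes kept. P2rx7, P2ry6, Rgs1 and Adcy7 are also made by macrophages, and Tac1 and Vip by nerve cells. The part of such cells in the differences was not tested, and in bulk RNA fewer cells of a type and less RNA per cell cannot be told apart.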

How the data were processed

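EpCAM-positive submandibular gland cells of each age gave 1 array. Per the labels, 50 ng of total RNA was labelled with Cy3. The deposited scanner files hold background-subtracted intensity values made with Feature Extraction 12.0.3.1 (mm9 coordinates), and the ratio values of the processed table were made by the authors, who used GeneSpring 14.9 to divide the signals by the 75th percentile of all spots of each array; this table served as an alternative. From the intensities, log2 of the signal over the 75th percentile of 59305 non-control spots (256 in the young, 198 in the aged cells) was computed, outlier spots left out (90 and 93) and no spot saturated. Precision is limited by the number of arrays and the signal over background: 55.4% of the young and 50.8% of the aged spots were well above background, and the probe error of the software does not hold the spread between mice. A probe well above background on 1 array gave a lower limit of the fold, and the brightest kept probe stood for a gene. Genes were named by rule: all 9 receptors, listed genes at least 2-fold apart (at most 6 per list) and receptors of the same families. The members and lists were chosen with earlier results of these data known. Alternatives were centring on the median, the percentile over probes measured at both ages, quantile normalization, loess, spike-in controls, normexp (offset 50), other filters on dim probes, the mean of the probes of a gene, keeping outlier spots and the authors' table. Some listed genes are not reported here. Calculations used R 4.3.3 with limma 3.58.1 and Python 3.11.15 with numpy 2.4.6, pandas 2.3.3 and matplotlib 3.10.9. Only the probe differences and lower limits under the 75th percentile scaling were tested on simulated data, with noise smaller than the error of the software.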

Additional observations from a re-analysis of the deposited data

How the results depend on the processing

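No paired analysis was possible because there was 1 array per age, and no array could be left out. No gene named as past 2-fold changed direction, while 8 of the 13 receptor probes changed sign near 0, as did the medians of all pathway lists other than P2Y and adenosine receptors and neuropeptides under the scalings. None of the 7 receptors measured on both arrays reached 2-fold under any setting by the probe that stands for it, while the upstream Chrm3 probe reached -1.10 with spike-in controls. With spike-in controls the differences became -0.39 for Chrm3, -0.59 for Adrb1, -0.24 for Vipr1, -0.061 for P2rx4 and -0.96 for P2rx7, and the medians -0.27 for adrenergic receptors, -0.31 for peptide receptors, -0.51 for P2X channels, -0.75 for P2Y and adenosine receptors, -0.11 for nucleotide release and breakdown, -0.25 for Gq and calcium coupling, -0.21 for Gs and cyclic AMP coupling, -0.40 for desensitisation and -0.51 for neuropeptides. Loess gave -0.20 for Vipr1, -0.27 for P2rx4 and -0.23 for Gq and calcium coupling, quantile normalization -0.38 for P2rx4, and normexp 0.40 for Adra1a, 0.038 for P2X channels and -0.19 for P2Y and adenosine receptors. The number of genes at least 2-fold higher was 538, against 350 with spike-in controls, 182 with normexp, 284 on both arrays only and 1680 with no filter on dim probes. Those lower numbered 1094, against 297 with normexp, 569 on both arrays only, 2398 with no filter and 1814 by the mean of the kept probes. The counts with no filter and by the mean used plain differences in place of the lower limits, so they also differ from the main counts in that rule. Higher calls made up 33.0% of calls, 48.0% with centring on the median and 17.9% with spike-in controls. With no filter the medians were -0.34 for adrenergic receptors, -0.60 for P2X channels, -1.03 for P2Y and adenosine receptors and 0.38 for neuropeptides. Keeping outlier spots and the authors' processed table moved no result. The cause of these moves was not tested.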
